A study of Mus musculus with 6 samples.

Results

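The integrated stress response genes described here are Atf4, which encodes activating transcription factor 4, and 9 genes known as its targets in amino acid stress: Ddit3, Trib3, Sesn2, Chac1, Asns, Phgdh, Psat1, Cth and Fgf21. They were taken by gene symbol, and all 10 are among the 12023 genes of the deposited table. The list was put together with the levels of these genes in the same libraries in view, as a set that was high in the same libraries, so that their levels by library are given as a description, with no test. Of the 10, 9 passed the filter on low counts that left 8752 genes for testing, and Sesn2 did not.

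The libraries came from fibroblasts of the mammary fat pad of healthy BALB/c females and healthy C57BL/6 females, aged 8 to 12 weeks, with 3 biological replicates per strain. The labels name no engineered allele and no treatment. Fat pad tissue was dissociated with enzymes, freed of red blood cells and plated on rat-tail collagen, and the cultures were kept for 4 days. The design text adds a magnetic step but not which cells it kept, and the cells are primary cultures, not a line. The values are counts of reads from the 3′ ends of polyadenylated RNA, which are given as CPM, the usual scaling to a fixed total, here with the TMM correction of each library.

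ATF4 is made when the initiation factor eIF2 is phosphorylated by one of the stress kinases, GCN2 for uncharged tRNA, PERK for unfolded protein in the endoplasmic reticulum, HRI for lack of heme and mitochondrial stress, and PKR for double-stranded RNA. Translation in general then drops while that of the Atf4 mRNA goes up, because short upstream reading frames are bypassed. ATF4 pairs with factors of the C/EBP family and binds composite elements in front of genes for amino acid synthesis, amino acid uptake and tRNA charging. Since much of the control of ATF4 is translational, the level of the Atf4 mRNA and the level of the protein can differ.

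Total counts were 1035485 to 2713611 in the BALB/c libraries and 1295349 to 4665896 in the C57BL/6 libraries. C57BL/6 replicate 1 stood apart, with a mean correlation of 0.779 across genes with the other libraries, against 0.870 to 0.910 for the other 5, and with 1320 of 8752 tested genes, or 15.1%, at a level at least 4-fold under that of each of the other C57BL/6 libraries. The counts of genes with 2-fold steps and the members' strain differences are therefore also given without it. Fibroblast genes such as Col1a2, Vim and Thy1 were detected in all 6 libraries, from 597 CPM upwards for Col1a2, with Pdgfra, a receptor that marks fibroblasts, at 4.58 to 30.5 CPM. Keratins of mammary epithelium were detected in all 6 as well.

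The members were high together in 1 library of each strain, BALB/c replicate 1 and C57BL/6 replicate 2. In 9 of 10 members these were the 2 highest of the 6 libraries, and Sesn2 was the exception. That order held for 1398 of 8752 tested genes, or 16%. Over all tested genes, the deviations in log2 CPM of these 2 libraries from their strain means correlated at 0.58. The members without Atf4 summed to 2134 CPM in BALB/c replicate 1, against 519 and 663 CPM in BALB/c replicates 2 and 3. In C57BL/6 they summed to 2019 CPM in replicate 2, against 427 and 585 CPM in replicates 1 and 3. The high library of either strain thus lay above all 4 remaining libraries, and the strains overlapped. In bulk RNA, more cells in this state and more of these transcripts per cell cannot be told apart.

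**Figure D1:**
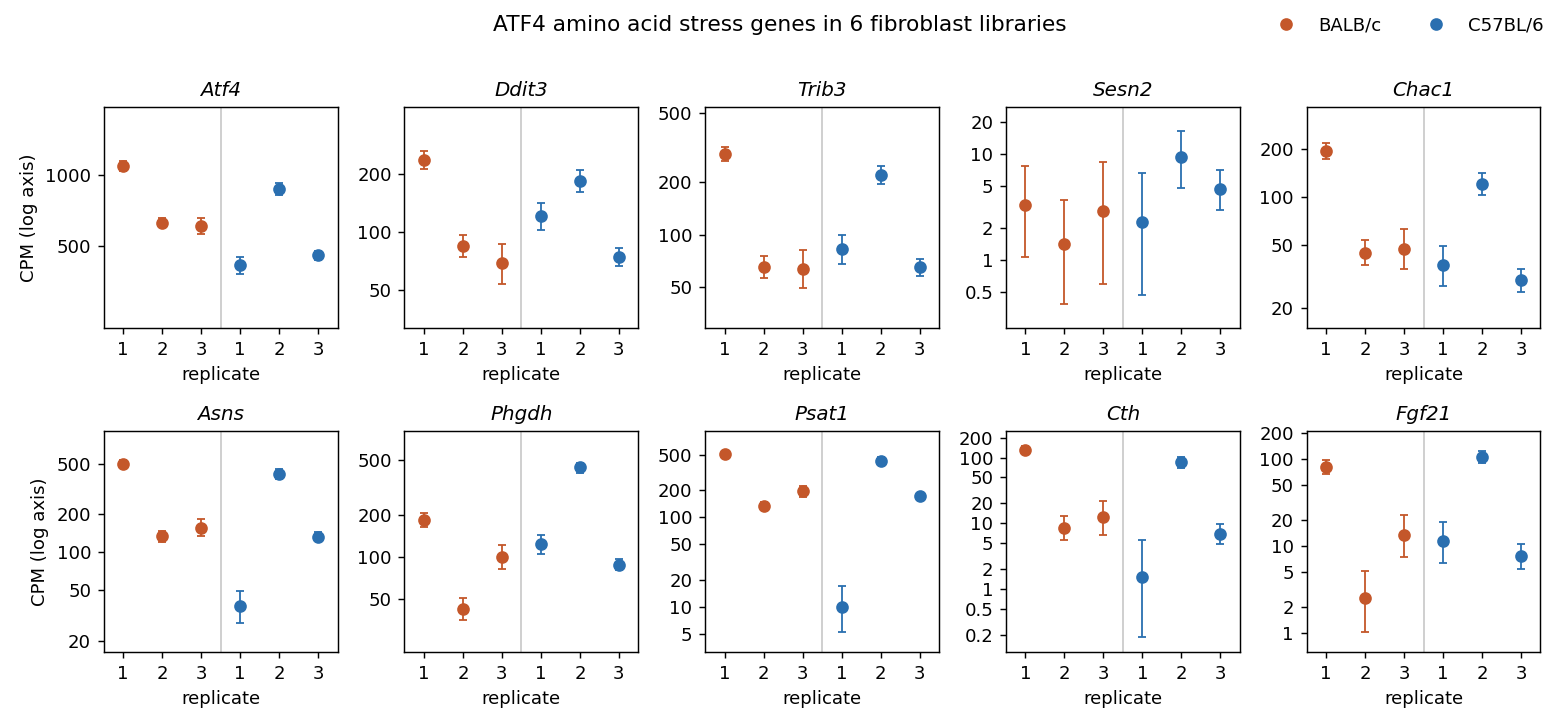
CPM of each of the 10 genes (log axis) in BALB/c replicates 1 to 3 and C57BL/6 replicates 1 to 3, with exact 95% counting intervals as bars. BALB/c replicate 1 and C57BL/6 replicate 2 are the 2 highest libraries in each panel except that of Sesn2, and the other 4 libraries differ in order from gene to gene.

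Atf4 itself (chr15:80255184-80257541, GRCm38) was the most abundant member and the one that varied least. It had 1091, 626 and 606 CPM in BALB/c replicates 1, 2 and 3, and 412, 872 and 454 CPM in C57BL/6 replicates 1, 2 and 3. BALB/c replicate 1 was 1.74-fold and 1.80-fold above BALB/c replicates 2 and 3, and C57BL/6 replicate 2 was 2.12-fold and 1.92-fold above C57BL/6 replicates 1 and 3. The highest library was 2.65-fold above the lowest, where the other members spanned 3.45-fold (Ddit3) to 86.0-fold (Cth).

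Ddit3 (chr10:127290829-127293753) encodes CHOP, a C/EBP family factor induced by ATF4 and linked to cell death under lasting stress. It had 237, 84.8 and 68.7 CPM in BALB/c replicates 1, 2 and 3, and 121, 184 and 74.3 CPM in C57BL/6 replicates 1, 2 and 3. C57BL/6 replicate 1 lay between the high and the low libraries. Exons of Ddit3 overlap those of Mars and Gm4189 on the opposite strand, and no source used here says whether counting went by strand, so the counts of this gene are uncertain.

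Trib3 (chr2:152337422-152344032) encodes a pseudokinase that ATF4 and CHOP induce and that feeds back on ATF4. Its libraries were 289, 65.5 and 63.9 CPM in BALB/c and 82.5, 221 and 65.3 CPM in C57BL/6, in replicate order. The 4 libraries outside the high pair kept within a narrow band, and the high libraries stood at least 2.68-fold above the others of their strain. Chac1 (chr2:119351229-119354381), which encodes an enzyme that breaks down glutathione, had 194, 44.7 and 47.4 CPM in BALB/c and 37.4, 121 and 30.0 CPM in C57BL/6. Here too the other 4 libraries lay close together, with C57BL/6 replicate 1 among them and not apart. Sesn2 (chr4:132492032-132510501), sestrin 2, a leucine sensor that restrains mTORC1, was near the limit of detection, with 3 to 5 counts in the BALB/c libraries and 3 to 23 counts in the C57BL/6 libraries. Its highest level was 9.38 CPM in C57BL/6 replicate 2, with an exact 95% counting interval of 4.85 to 16.4 CPM that lies above that of BALB/c replicate 2 (0.390 to 3.67 CPM) and overlaps those of the other 4 libraries.

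Among the enzymes of amino acid synthesis, Asns (chr6:7675169-7693254), asparagine synthetase, had 499.6, 133 and 157 CPM in BALB/c replicates 1, 2 and 3, and 37.4, 415 and 133 CPM in C57BL/6 replicates 1, 2 and 3. Psat1 (chr19:15904678-15947337), the transaminase of serine synthesis, had 512, 136 and 196 CPM in BALB/c and 9.93, 432 and 175 CPM in C57BL/6. Both genes were close to equal in the high library of either strain, with ratios of BALB/c replicate 1 to C57BL/6 replicate 2 of 1.20 for Asns and 1.18 for Psat1. They differed from Trib3 and Chac1 in C57BL/6 replicate 1, where they were at their lowest, with 13 counts of Psat1. Against C57BL/6 replicate 3 alone, C57BL/6 replicate 2 was 3.12-fold higher for Asns and 2.46-fold higher for Psat1.

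Phgdh (chr3:98313170-98339990) encodes phosphoglycerate dehydrogenase, which starts serine synthesis from a glycolytic intermediate. It had 185, 42.2 and 101 CPM in BALB/c replicates 1, 2 and 3, and 124, 443 and 88.2 CPM in C57BL/6 replicates 1, 2 and 3. Unlike Asns and Psat1 it was highest in C57BL/6 replicate 2, with a ratio of BALB/c replicate 1 to C57BL/6 replicate 2 of 0.418, and C57BL/6 replicate 1 was not low. The last 500 nt of its transcript have near-identical copies in 7 annotated genes, the longest over 367 nt, so its counts depend on how shared reads were treated.

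Cth (chr3:157894248-157925077) encodes cystathionine gamma-lyase, which makes cysteine from cystathionine, and it had the widest range of the members. It had 131, 8.59 and 12.6 CPM in BALB/c replicates 1, 2 and 3, and 1.53, 85.2 and 6.94 CPM in C57BL/6 replicates 1, 2 and 3. BALB/c replicate 1 was 15.3-fold and 10.4-fold above the other BALB/c libraries, and C57BL/6 replicate 2 was 12.3-fold above C57BL/6 replicate 3. The value of C57BL/6 replicate 1 rests on 2 counts, with a counting interval of 0.185 to 5.52 CPM.

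Fgf21 (chr7:45613886-45615490) encodes fibroblast growth factor 21, a secreted hormone that liver, fat and muscle release under metabolic stress. It had 82.0, 2.51 and 13.5 CPM in BALB/c replicates 1, 2 and 3, and 11.5, 107 and 7.75 CPM in C57BL/6 replicates 1, 2 and 3. BALB/c replicate 2 was lowest, with 7 counts and an interval of 1.01 to 5.16 CPM, which lies below the intervals of the other 5 libraries. C57BL/6 replicate 1 was within the range of the low libraries for this gene. Taking the smaller of the 2 ratios within each strain, Cth and Fgf21 had the largest steps among the 9 tested members, and the smallest were those of Atf4 in BALB/c and of Ddit3 in C57BL/6.

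Promoter sequence is shown for the members that hold a C/EBP-ATF composite element, the kind of site through which ATF4 is known to act. The core searched was TGATGNAA on both strands of the 250 bases before each RefSeq start (GRCm38.p6). Of the 9 members with a promoter in the table used, Asns, Chac1 and Fgf21 held it, against 1056 of 27025 genes, or 3.91%, in at least 1 of their promoters (1134 of 32851 promoters, or 3.45%). A variant, TGGTGCAAT, was chosen after the promoters had been read. Trib3 and Psat1 held it in at least 1 promoter, against 25 of 27025 genes, or 0.0925% (0.0761% of promoters). The variant was chosen with the members' promoters in view, so nothing is read from that share. No member held both motifs, and a match is a description of these letters only. In the lines below the match is in capitals, on the strand of the gene, so that a match on the other strand reads as TTGCATCA. The stretches lie at chr6:7693210-7693272 (Asns, minus strand), chr2:119351009-119351098 (Chac1, plus strand), chr7:45615580-45615669 (Fgf21, minus strand), chr2:152344061-152344133 (Trib3, minus strand) and chr19:15925146-15925235 (Psat1, minus strand).
Asns: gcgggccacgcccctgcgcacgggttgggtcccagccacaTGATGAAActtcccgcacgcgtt
Chac1: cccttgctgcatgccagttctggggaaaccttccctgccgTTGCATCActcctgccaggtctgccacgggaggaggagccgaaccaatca
Fgf21: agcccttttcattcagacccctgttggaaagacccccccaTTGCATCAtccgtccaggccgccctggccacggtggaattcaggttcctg
Trib3: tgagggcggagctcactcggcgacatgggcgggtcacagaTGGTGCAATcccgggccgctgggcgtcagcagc
Psat1: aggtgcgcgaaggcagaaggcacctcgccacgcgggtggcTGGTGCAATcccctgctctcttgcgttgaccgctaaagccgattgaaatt
Counted back from -1 at the base before the start, the matches begin at -23 in Asns, -193 in Chac1, -139 in Fgf21, -33 in Trib3 and -136 in Psat1. The position for Psat1 is that in the promoter shown, and another Psat1 promoter (chr19:15924623-15924872, 250 bases) held neither motif. Chac1 and Fgf21 carry the same core, TTGCATCA. Atf4, Ddit3, Sesn2 and Phgdh held neither motif in this window, which says nothing of sites elsewhere.

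Counted gene by gene, 7 of the 9 tested members were at least 2-fold higher in BALB/c replicate 1 than in each other BALB/c library, against 2.72% of all tested genes, and 7 of 9 in C57BL/6 replicate 2 than in each other C57BL/6 library, against 5.34%. Both steps were found in 6 of the 9, Trib3, Chac1, Asns, Psat1, Cth and Fgf21. Atf4 missed the limit in both strains, Phgdh missed it against BALB/c replicate 3, and Ddit3 against C57BL/6 replicate 1. Without C57BL/6 replicate 1, Ddit3 joined and the count was 7 of 9. Over all tested genes the share was 1.26% with all libraries and 1.43% without C57BL/6 replicate 1. The 2 libraries were picked out by the values of the members, so nothing is read from the members' count.

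The other genes of the pathway were described by lists of known targets and regulators that hold none of the members. Enzymes of serine, folate and proline metabolism were tested for 14 of 21 listed genes, and 9 of the 14 had BALB/c replicate 1 and C57BL/6 replicate 2 as their 2 highest libraries. At least 2-fold steps in both strains were found in 4 of 14, against 1.26% of all tested genes. Psph, phosphoserine phosphatase, the last enzyme of serine synthesis, had 434, 108 and 153 CPM in BALB/c replicates 1, 2 and 3, and 86.3, 425 and 134 CPM in C57BL/6 replicates 1, 2 and 3. Its high libraries were nearly equal, and C57BL/6 replicate 1 was its lowest.

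Mthfd2, a mitochondrial folate enzyme, was the next of these, with 400.2, 157 and 171 CPM in BALB/c and 145, 336 and 152 CPM in C57BL/6. Aldh1l2, another mitochondrial folate enzyme, and Pycr1, which makes proline, completed the 4 and are named after their values were seen. Aldh1l2 was at 92.1 CPM in BALB/c replicate 1 and 97.7 CPM in C57BL/6 replicate 2, with 9.17 to 18.4 CPM in the other libraries. Shmt2, the mitochondrial serine hydroxymethyltransferase, and Got1, an aspartate transaminase, had the same 2 libraries highest without the 2-fold steps in both strains. Shmt2 reached 2-fold against both other libraries in BALB/c and missed it in C57BL/6 (1.42-fold and 1.95-fold), and Got1 missed it in both strains. Shmt2 had 684, 219 and 295 CPM in BALB/c and 428, 608 and 312 CPM in C57BL/6, and Got1 had 155, 57.6 and 84.2 CPM in BALB/c and 76.4, 141 and 96.5 CPM in C57BL/6.

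Of 15 listed amino acid transporters 12 were tested. In 7 of the 12 the same 2 libraries were highest, and 3 of 12 had the 2-fold steps, or 4 of 12 without C57BL/6 replicate 1, when Slc6a9, a glycine carrier, joined. Slc7a5, the light chain of the large neutral amino acid carrier LAT1, had 374, 85.5 and 123 CPM in BALB/c replicates 1, 2 and 3, and 56.5, 253 and 85.7 CPM in C57BL/6 replicates 1, 2 and 3. Slc1a5, a glutamine carrier, had 299, 65.9 and 124 CPM in BALB/c and 35.1, 163 and 61.6 CPM in C57BL/6. The other gene with the step, named after its values were seen, was Slc7a3, a carrier of cationic amino acids, at 53.4 CPM in BALB/c replicate 1 and 27.4 CPM in C57BL/6 replicate 2, with at most 7.74 CPM elsewhere. Slc3a2, the heavy chain that pairs with Slc7a5, had the same order with smaller steps, at 650.4, 380 and 351 CPM in BALB/c and 505, 553 and 392 CPM in C57BL/6. Slc38a2, a small neutral amino acid carrier, did not, with 203, 225 and 161 CPM in BALB/c and 33.6, 161 and 133 CPM in C57BL/6.

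Cytosolic tRNA synthetases and their cofactors, which charge tRNA with amino acids, had the same 2 libraries highest in 12 of 21 tested genes, with small steps. Of the 21, 1 reached 2-fold in both strains, Xpot, a tRNA exporter named after its values were seen, and 0 did with library totals alone. Without C57BL/6 replicate 1 Nars joined it. Gars, for glycine, had 812, 372 and 459.7 CPM in BALB/c and 374, 731 and 400.2 CPM in C57BL/6. Nars, for asparagine, had 755, 339 and 343 CPM in BALB/c and 401, 751 and 375 CPM in C57BL/6, and Aars, for alanine, had 517, 182 and 323 CPM in BALB/c and 261, 533 and 269.6 CPM in C57BL/6. Vars, for valine, was highest in C57BL/6 replicate 1 instead, with 289, 226 and 268 CPM in BALB/c and 474, 248 and 297 CPM in C57BL/6.

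Other arms of the stress response were counted in the same way. Among 18 tested stress effectors 7 had the same 2 libraries highest and 0 had the 2-fold steps. Eif4ebp1, an inhibitor of cap-dependent translation, had 892, 379 and 401 CPM in BALB/c and 590.5, 778 and 393 CPM in C57BL/6, and Sqstm1, the autophagy receptor p62, had 1649, 910 and 722 CPM in BALB/c and 1238, 1436 and 907 CPM in C57BL/6. Hmox1, heme oxygenase, and Cdkn1a, the cell cycle inhibitor p21, were highest in C57BL/6 replicate 1, at 1305 and 973 CPM. Ddit4, Sesn3, Ndrg1, Map1lc3b and Bcl2l11, named after their values were seen, were lowest of each strain in BALB/c replicate 1 and C57BL/6 replicate 2. In BALB/c Map1lc3b was so by little, at 177 CPM against 181 CPM in replicate 3. The share of all tested genes with that order was not counted. Of the 18 effectors, 0 were at least 2-fold lower in both libraries than in the others of their strain, against 3.32% of all tested genes. Ddit4 had 239, 396 and 395 CPM in BALB/c and 689, 134 and 406 CPM in C57BL/6. Sesn3 had 4.00, 25.1 and 17.4 CPM in BALB/c and 30.6, 13.3 and 25.5 CPM in C57BL/6.

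The list of partner transcription factors also holds Trib1 and Trib2, relatives of Trib3 that are not transcription factors. It had the order in 2 of 9 tested genes, Atf5 and Jdp2. Trib1, named after its values were seen, was lowest of each strain in BALB/c replicate 1 and C57BL/6 replicate 2. It had 30.0, 77.3 and 62.9 CPM in BALB/c and 87.1, 33.6 and 71.6 CPM in C57BL/6. Of the 9, 1 was at least 2-fold lower in both libraries than in the others of their strain, against 3.32% of all tested genes. Atf5, a close relative of Atf4, had 779.8, 300.3 and 436 CPM in BALB/c and 355, 692 and 428 CPM in C57BL/6. Cebpb, a dimer partner of ATF4, had 383, 442 and 345 CPM in BALB/c and 510.3, 370 and 489.7 CPM in C57BL/6, so its libraries ran in another order. Nupr1, a stress-induced chromatin protein, had 536, 666 and 472 CPM in BALB/c and 508, 448 and 324 CPM in C57BL/6, and Nfe2l1, a factor that controls proteasome genes, was highest in C57BL/6 replicate 1 at 425 CPM.

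Genes listed upstream of ATF4 were those of the eIF2 kinases and their regulators, of eIF2 subunits, of Eif2a and of the exchange factor eIF2B. The order was found in 4 of 16 tested genes, Eif2ak4, Eif2s2, Eif2s3x and Eif2b3. Of the 16, Eif2ak3, Eif2ak4, Eif2a, Eif2s2 and Eif2s3x, or 5, were at least 4-fold lower in C57BL/6 replicate 1 than in either C57BL/6 replicate 2 or 3, and so were 2 of the 9 members, Psat1 and Cth, against 15.1% of all tested genes. The most abundant subunit gene of eIF2B, Eif2b2, was at 181, 134 and 178 CPM in BALB/c and 184, 165 and 148 CPM in C57BL/6. The next 3 genes of the list by level, the subunit genes Eif2b5, Eif2b1 and Eif2b4, had 74.7 to 91.3, 69.4 to 78.4 and 49.4 to 58.7 CPM in BALB/c, and 68.0 to 98.5, 71.1 to 76.9 and 53.1 to 69.5 CPM in C57BL/6. In the unfolded protein response of the endoplasmic reticulum, which shares the kinase PERK, 2 of 17 had the order, Herpud1 and Sel1l. Hspa5, the chaperone BiP, had 491, 586 and 433 CPM in BALB/c replicates 1, 2 and 3, and 31.3, 485 and 347 CPM in C57BL/6 replicates 1, 2 and 3. BALB/c replicate 1 and C57BL/6 replicate 2 thus lay below BALB/c replicate 2 for Hspa5. Hsp90b1, Pdia6 and Manf, a chaperone, a disulfide isomerase and a secreted protective factor, were lower in BALB/c replicate 1 than in BALB/c replicates 2 and 3, at 662, 560.3 and 370 CPM. In C57BL/6 replicate 2 they did not go one way: Pdia6, at 639 CPM, was the highest of its strain, Hsp90b1, at 735 CPM, lay 1.96-fold above C57BL/6 replicate 1 and close to the 753 CPM of replicate 3, and Manf, at 358 CPM, was the lowest of its strain. Among 11 tested targets of NRF2, the antioxidant regulator, 1 had the order, Nfe2l2, which encodes NRF2 itself, and Txnrd1, Pgd and Taldo1 were not among those. Genes named here for having the order, beyond the most abundant of each list, were taken after their values were seen. All of these shares stand beside the 16% of all tested genes that had this order, and no difference between lists was tested.

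**Figure D2:**
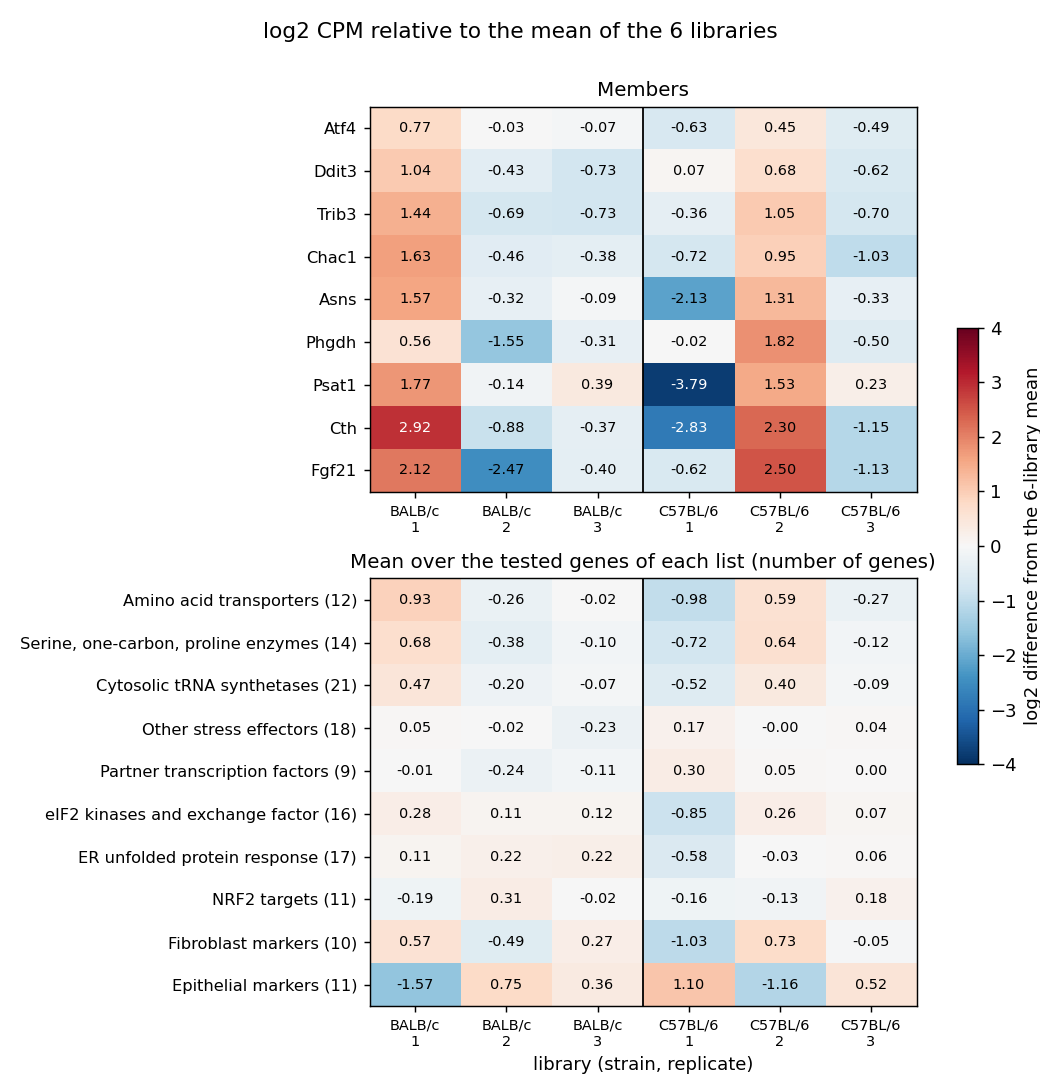
log2 CPM in each library minus the mean of the 6 libraries, for the 9 tested members (upper panel) and as the mean over the tested genes of each list (lower panel, number of genes in brackets), with BALB/c libraries left of C57BL/6 libraries. BALB/c replicate 1 and C57BL/6 replicate 2 are above the mean in all 9 members and in the lists of transporters, serine and folate enzymes, synthetases and fibroblast markers. They are below it for the epithelial markers and, by less, for the NRF2 targets. The list labelled eIF2 kinases and exchange factor is above the mean in each library but C57BL/6 replicate 1.

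The genes most like the members were looked for among 4455 genes outside the list whose mean log2 CPM was 5 or more. Likeness was the root mean square difference, over the 6 libraries, from the mean profile of the 9 tested members, each centred on its own mean log2 CPM. The closest was Psph (0.17), followed by Acot2 (0.20), a mitochondrial acyl-CoA thioesterase, and Slc7a5 (0.21). Next came P3h3 (0.30), a collagen prolyl hydroxylase, Ch25h (0.34), cholesterol 25-hydroxylase, and Mfap5 (0.34), a protein of elastic microfibrils. The members themselves lay 0.35 (Chac1) to 1.18 (Psat1) from their mean profile. Acot2 had 140 CPM in BALB/c replicate 1 and 113 CPM in C57BL/6 replicate 2, with 23.3 to 31.9 CPM in the other libraries. This ranking over 6 libraries is a description and holds genes of the pathway next to genes of the extracellular matrix.

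Epithelial markers were low in the libraries where the members were high. The 11 epithelial markers, keratins, claudins, Epcam and Cdh1, held 0.202%, 1.21% and 0.910% of all counts in BALB/c replicates 1, 2 and 3, against 1.59%, 0.313% and 1.07% in C57BL/6 replicates 1, 2 and 3. Their share was thus lowest in the 2 libraries where the members were high, and 7 of the 11 were at least 2-fold lower in each of these than in the other libraries of the same strain, against 3.32% of all tested genes. The 10 fibroblast markers in the table held 1.32%, 0.517% and 0.911% of counts in BALB/c and 0.293%, 1.36% and 0.704% in C57BL/6, highest in the same 2 libraries. Of the 10, 7 had these as their 2 highest libraries and 2, Col1a1 and Col3a1, had the 2-fold steps in both strains. The sum is carried mostly by Vim, Col1a2 and Fbln2. S100a4 ran the other way, with 48.0, 230 and 154 CPM in BALB/c replicates 1, 2 and 3, and 159, 70.3 and 137 CPM in C57BL/6 replicates 1, 2 and 3. No epithelial marker was at 0 in any library, and the part that the mix of cells has in the members' levels was not tested. Macrophage markers held 0.0622% to 0.0988% of counts in BALB/c and 0.0922% to 0.144% in C57BL/6, endothelial markers at most 0.00828%, adipocyte markers at most 0.00774%, with no row used for Adipoq, Plin1, Cidec and Lep, and pericyte and smooth muscle markers 0.0495% to 0.0645% in BALB/c and 0.0718% to 0.0924% in C57BL/6.

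**Figure D3:**
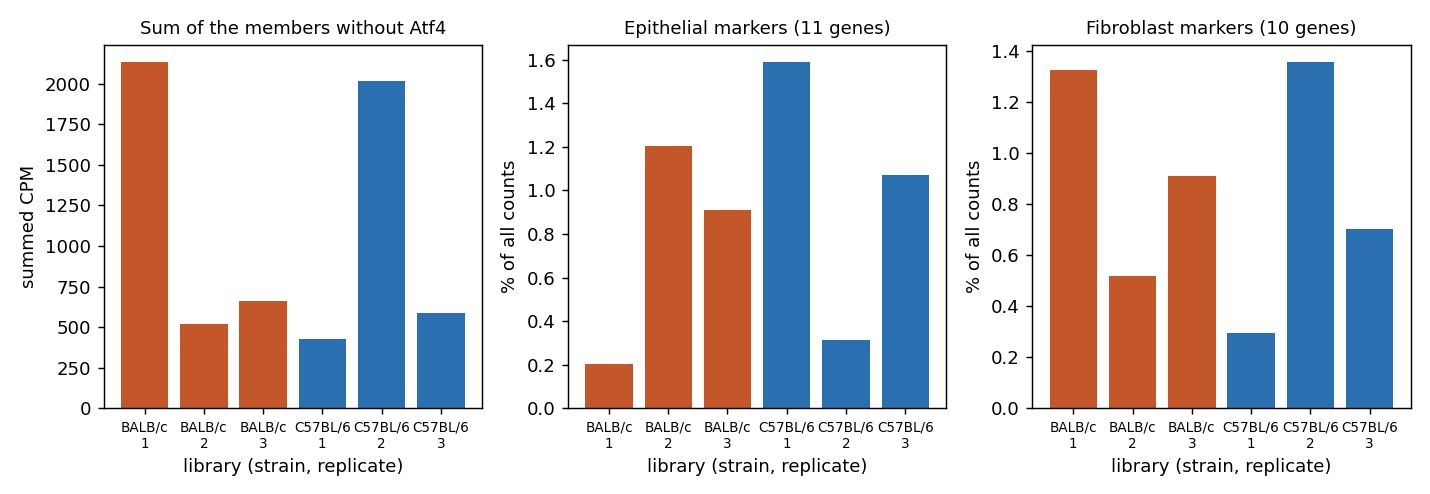
Summed CPM of the 9 members other than Atf4 (left), and the percentage of all counts held by 11 epithelial markers (middle) and 10 fibroblast markers (right), for BALB/c replicates 1 to 3 and C57BL/6 replicates 1 to 3. The members sum to 2134 CPM in BALB/c replicate 1 and 2019 CPM in C57BL/6 replicate 2, the libraries with the lowest epithelial and the highest fibroblast percentages.

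Between the strains, the members' levels overlapped in all 10 genes, where 995 of 8752 tested genes, or 11.4%, did not overlap. The members were listed for being high in 1 library of each strain, which makes the strains overlap. Nothing is therefore read from that count. The log2 difference (BALB/c minus C57BL/6, ± standard error, edgeR fit over all genes) was 0.42 ± 0.39 for Atf4, 0.05 ± 0.54 for Ddit3, 0.19 ± 0.72 for Trib3 and 0.62 ± 0.75 for Chac1. It was 0.44 ± 0.85 for Asns, 0.45 ± 1.04 for Psat1, -0.996 ± 0.734 for Phgdh, 0.74 ± 1.44 for Cth and -0.34 ± 1.33 for Fgf21. Their median was 0.42, and that of all tested genes was 0.01. The error exceeded the difference in 7 of the 9, all but Atf4 and Phgdh. Choosing genes that are high in 1 library of each strain widens the spread within a strain and so the error. The share over all genes was not counted, and nothing is read from the 7 of 9.

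Over all genes edgeR's quasi-likelihood test called 18 of 8752, or 0.206%, at an adjusted p under 0.05, and 0 of the 9 members were among them. At an unadjusted p under 0.05 there were 0 members as well, against 338 of all tested genes, or 3.86%. DESeq2 called 0 members, against 0.632% of its 12021 genes, and limma-voom called 0, against 0.0343%. At such shares a count of 0 among so few genes says little. The members had been chosen on levels in these libraries, so this count is a description. Of the pathway lists, edgeR, DESeq2 and limma-voom called 0 genes in each. The median log2 difference was 0.02 over the 14 enzymes, 0.23 over the 12 transporters and 0.01 over the 21 synthetases and cofactors. It was -0.10 over the 18 stress effectors, -0.23 over the 9 genes listed with the partner factors and -0.01 over the 16 upstream genes. Over the 17 genes of the unfolded protein response it was 0.27, and over the 11 NRF2 targets -0.17. At an unadjusted p under 0.05 edgeR gave 3 of the 117 tested genes of these lists, a share below the 3.86% of all tested genes: Trib2 at -1.43 ± 0.43, Hmox1 at -0.89 ± 0.33 and Hyou1 at 0.94 ± 0.32, of which Trib2 and Hyou1 are named after their values were seen.

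The sign of the strain difference changed in some members when 1 library was left out, though not in Atf4. Without BALB/c replicate 1 the log2 difference was -0.44 for Chac1, -0.43 for Asns, -1.56 for Cth and -2.51 for Fgf21, and the sign turned in these but Fgf21, and in Ddit3, Trib3 and Psat1. That of Atf4 was 0.08. Without C57BL/6 replicate 2 it was 1.51 for Chac1, 1.60 for Asns, 3.37 for Cth and 1.79 for Fgf21, and that of Phgdh was 0.06, with the sign turned in Fgf21 and Phgdh alone. Without C57BL/6 replicate 1, which is not a high library, the sign turned in Asns (-0.06), Psat1 (-0.12) and Trib3 (-0.03). The values of the other members without it were 0.21 for Atf4, 0.01 for Ddit3, 0.37 for Chac1, 0.21 for Cth, -0.78 for Fgf21 and -1.29 for Phgdh. The lowest adjusted p of any member in any of these fits was 0.670, so no member passed in them.

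**Figure D4:**
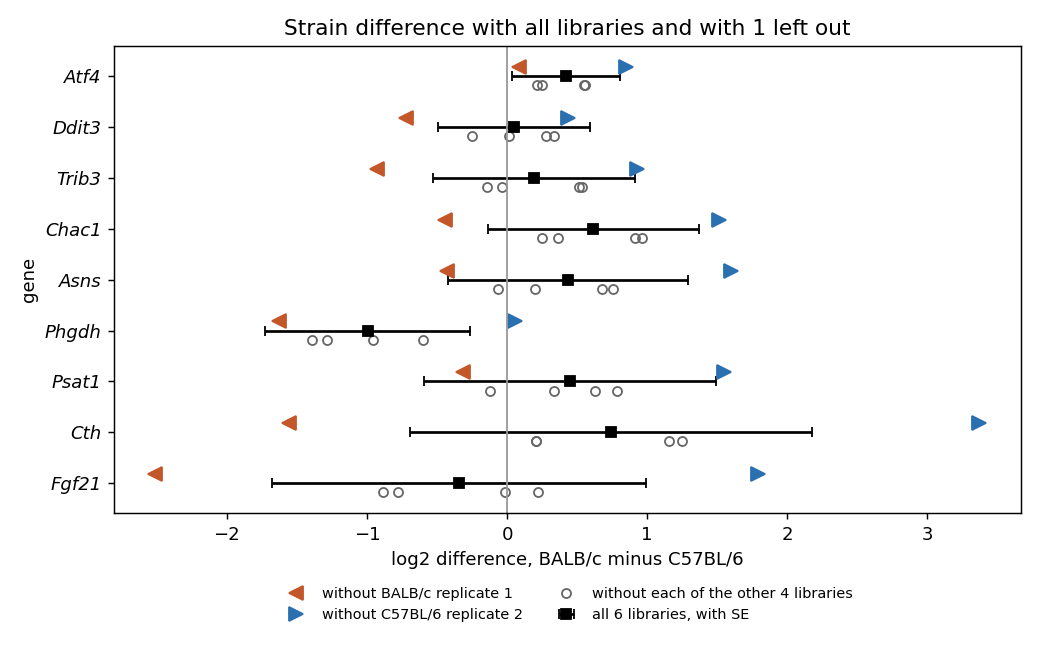
log2 difference, BALB/c minus C57BL/6, of the 9 tested members with all 6 libraries (squares, bars are the standard error) and with 1 library left out (triangles and open circles). Leaving out BALB/c replicate 1 gives the lowest value of each gene, down to -2.51 for Fgf21, and leaving out C57BL/6 replicate 2 gives the highest, up to 3.37 for Cth.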

How the data were processed

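Raw counts per gene symbol were deposited by the authors as 1 table of 6 libraries, in which each of 12023 genes reaches at least 6 counts somewhere. The submitters' processing notes name STAR 2.4.2a, HTSeq, bcl2fastq and the build mm10. No source used here gives the settings, the annotation, the use of strand, a batch, or how molecular identifiers and shared reads were treated. Columns were matched to samples by library name.

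Genes were filtered with filterByExpr by strain. Library totals were scaled by TMM (factors 0.866 to 1.06). A robust quasi-likelihood fit in edgeR 4.0.16 (R 4.3.3) with strain as the term gave two-sided p-values, adjusted by the Benjamini-Hochberg method with a threshold of 0.05. DESeq2 1.42.0, limma-voom (limma 3.58.1), other scalings, no filter, a replicate block and leaving out each library were alternatives. The log2 levels use a prior count of 2. Depth, 1035485 to 4665896 counts, sets the counting error, and exact 95% intervals cover counting error only. Replicates are biological per the labels, and within a strain they differed beyond sampling noise (chi-square per degree of freedom 7.41 to 37.5).

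Positions came from GENCODE M21 (GRCm38, the assembly of mm10), near-identical copies from BLAST+ 2.17.0 (95% identity over 60 nt within the last 500 nt) and promoters from RefSeq (GRCm38.p6), found for 9 of 10 members, Cth not among them. The members, lists and 2-fold limit were chosen with earlier results of these data known. From each list the 4 tested genes of highest mean log2 CPM, any past the threshold, and the 6 genes most like the members were named.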

Additional observations from a re-analysis of the deposited data

How the results depend on the processing

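The count of 18 genes that differed between the strains was 11 (5 higher and 6 lower in BALB/c, against 6 and 12) with library totals alone, 76 with DESeq2 and 3 with limma-voom, and leaving out 1 library gave 0 to 25. The replicate block gave 0, with 158 genes at an unadjusted edgeR p under 0.05. The labels do not say that equal numbers pair animals, so the numbers were not taken as pairs. Deviations of same-numbered libraries from their strain means correlated at -0.42, -0.40 and -0.08. Those of BALB/c replicate 1 and C57BL/6 replicate 2 correlated at 0.58, the highest value across strains, with 0.28 the next. Deviations from a mean of 3 libraries constrain each other, so these values cannot show whether equal numbers share an animal or a day. The members and the pathway lists had 0 called genes in each of the 12 alternatives. The count of synthetase genes with the 2-fold steps in both strains was 0 with library totals alone and 2 without C57BL/6 replicate 1, against 1. The other such counts stayed within 1.5 times. Mean member levels by library moved by less than the spread within a strain under the other scalings and prior count. Of 528 gene values under alternatives, 3 moved by more than the spread between replicates. They were those of Trib3 and Fgf21 without BALB/c replicate 1 and of Cth without C57BL/6 replicate 2. Both spreads include the high libraries and are wide for the members, so the count of 3 does not show stability. Asns went from 0.44 to 1.60 without C57BL/6 replicate 2 and stayed within its spread. Of the 528 values, 80 had the other sign. The cause of these changes was not tested. Precision is limited most for Sesn2 and for Cth in C57BL/6 replicate 1, by their low counts.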
